A study of Homo sapiens with 6 samples.

Results

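The H/ACA box and Cajal body RNAs are short nuclear RNAs that guide the modification of other RNAs, and their signals were compared between neural stem cells given the compound X5050 and neural stem cells given its vehicle. A member was any probe set whose only annotated symbol began with SNORA or SCARNA, with 1 probe set per symbol, the one with the highest mean over the 6 arrays. This gave 77 RNAs, 61 named SNORA and 16 named SCARNA, out of 83 such probe sets. They stand among 19460 probe sets with a single symbol, which cover 18417 symbols, and a further 28 probe sets that name a SNORA or SCARNA together with another gene lie outside the rule.

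The cells were neural stem cells derived from SA-01, an established human embryonic stem cell line, at passage 14. X5050, known as a compound that lowers the neuronal gene repressor REST, was applied at 100 µM to 3 samples, and DMSO was applied at 0.1% to the other 3. Both exposures began 5 h after plating on polyornithine and laminin and lasted 24 h, in a serum-free medium with N-2 and B-27 supplements. The design text describes 3 independent cultures, each of which was given 1 agent or the other, and culture here means samples that carry the same replicate number. The text does not say outright that each culture was split between the agents, so that pairing rests also on the values. Total RNA, 100 ng per sample, was hybridised to 1 Affymetrix whole-transcript array each. All samples shared 1 line and 1 passage, so the p-values measure the spread between cultures of that line and not between donors. In the fit with culture as a block, that spread is of the X5050 minus DMSO difference from culture to culture.

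H/ACA RNAs fold into hairpins that pair with a target RNA and place one of its uridines in the active site of dyskerin, the pseudouridine synthase encoded by DKC1, which works with NHP2, NOP10 and GAR1. RNAs named SNORA act mostly in the nucleolus on ribosomal RNA, whereas those named SCARNA gather in Cajal bodies and act mostly on the small nuclear RNAs of the spliceosome. The SCARNA name spans several architectures: SCARNA7, SCARNA9 and SCARNA17 are of the C/D type, which guides 2′-O-methylation, and SCARNA5, SCARNA6, SCARNA10 and SCARNA12 carry both kinds of box, so the 77 RNAs are not all H/ACA RNAs. Most are cut out of introns of longer genes, and a probe set inside an intron reads unspliced host RNA as well as the finished guide RNA. Near-identical or related copies can also share probes. The values of SNORA3A and SNORA3B, of SCARNA9 and SCARNA9L, or of the RNAs named SNORA70 and SNORA80, may therefore not be separate.

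The probe sets of these RNAs were mostly dim. Of the 77, 66 had a mean log2 signal below the median of all tested probe sets (6.26), and 43 were below the lower quartile (5.00). Signal bands describe how bright a probe set was and do not rank the abundance of different RNAs, and no probe set was called absent. By class, 52 of 61 SNORA probe sets and 14 of 16 SCARNA probe sets lay below that median, and SCARNA9 alone lay above the upper quartile (7.77). Median log2 signals of the SNORA probe sets were 4.73 with X5050 and 4.68 with DMSO, those of the SCARNA probe sets were 5.32 with X5050 and 5.33 with DMSO, and those of all tested probe sets were 6.26 with X5050 and 6.25 with DMSO.

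The brightest SNORA probe set, SNORA57, had log2 signals of 7.13, 7.16 and 7.26 in X5050 cultures 1, 2 and 3, against 7.36, 7.11 and 7.31 in the DMSO cultures. Next by DMSO signal came SNORA3B, SNORA67, SNORA80E and SNORA80A. SNORA80E averaged 6.92 ± 0.17 with X5050 and 6.92 ± 0.20 with DMSO, and SNORA80A averaged 6.57 ± 0.082 with X5050 and 6.66 ± 0.22 with DMSO (SD, n = 3 each). The dimmest by DMSO signal were SNORA69, SNORA2A and SNORA36C, at 2.72, 2.83 and 3.01 with X5050 and at 2.70, 2.77 and 2.87 with DMSO.

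Among the SCARNA probe sets, that of SCARNA9, a guide of the U2 small nuclear RNA, had log2 signals of 9.06, 9.24 and 9.26 in the X5050 cultures, against 9.17, 9.28 and 9.45 in the DMSO cultures. The groups overlapped. SCARNA5, SCARNA12 and SCARNA16 averaged 6.28, 6.07 and 6.12 with X5050 and 6.20, 6.03 and 6.05 with DMSO. SCARNA10 and SCARNA11, both guides of the U5 small nuclear RNA, averaged 5.30 and 5.28 with X5050, against 5.32 and 5.19 with DMSO. Means of SCARNA6, SCARNA4, SCARNA1 and SCARNA23 ranged from 3.07 to 4.68 with X5050 and from 2.97 to 4.64 with DMSO, with changes between 0.015 and 0.096.

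Over all 33297 probe sets, medians of the 6 arrays lay between 5.68 and 5.75 in log2 signal. Correlations between arrays over the same probe sets lay between 0.984 and 0.993, and no array stood apart. Of 12 neural stem cell markers, 9 were above the upper quartile of signal, with median log2 levels of 9.14 with X5050 and 9.42 with DMSO. Changes were below 0 for 8 of the 12, where 47.3% of all tested probe sets were. The smallest p-values belonged to NES at −0.42 (SE 0.10) and MSI1 at −0.23 (SE 0.10), both lower in every culture without overlap. Next came SOX2, a transcription factor of neural progenitors, which averaged 11.03 with X5050 and 10.88 with DMSO. All 9 mesenchymal markers had changes below 0 (median −0.33, and −0.40, −0.40 and −0.065 in cultures 1, 2 and 3), and their summed linear signal was 4311, 1634 and 1512 in the X5050 cultures, against 6897, 2437 and 1687 in the DMSO cultures. One of them, LUM, an extracellular matrix proteoglycan, fell with culture as a block (change −1.09, adjusted p = 0.0386, limma). Median changes were −0.10 for the neural stem cell markers, −0.018 for 7 neuron markers, −0.32 for 3 pluripotent cell markers and 0.15 for 5 astrocyte markers, none of which passed in either fit. Fewer cells of a type and less RNA per cell cannot be told apart in these bulk samples, and the part of these markers in the changes below was not tested.

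Changes are given as X5050 minus DMSO on the log2 scale, so a negative one means a lower signal with X5050. In this comparison no member reached an adjusted p under 0.05 in limma without a block, against 0% of all 19460 tested probe sets higher and 0% lower. With culture as a block, no member rose, against 0.190% of all tested probe sets, and SNORA3B and SCARNA9L fell, against 0.308% of all tested probe sets (0.498% in either direction). At an unadjusted p under 0.05 without the block, 3 of 77 were higher, where 4.50% of all tested probe sets were, and 6 of 77 were lower, where 4.88% were (9.37% in either direction). With the block these counts were 7 higher and 11 lower, against 7.06% and 7.48% of all tested probe sets (14.5% in either direction). The 3 X5050 values did not overlap the 3 DMSO values for 10 of the 77 (13.0%), against 14.9% of all tested probe sets. Of these, 3 were higher and 7 lower, against 7.51% and 7.41% of all tested probe sets. A change larger than 0.5 on the log2 scale was seen for 5 of the 77 (6.49%), against 1.68% of all tested probe sets, namely SNORA3B, SCARNA9L, SNORA7B, SCARNA14 and SNORA70G. Direction was the same in all 3 cultures for 25 of the 77 (32.5%), against 35.6% of all tested probe sets. It was higher in all 3 for 11 and lower in all 3 for 14, against 18.0% and 17.5% of all tested probe sets.

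SNORA3B, encoded within the ribosomal protein gene RPL27A, had log2 signals of 6.42, 6.29 and 6.34 in X5050 cultures 1, 2 and 3, against 7.53, 7.03 and 6.95 in the DMSO cultures. All X5050 values lay below all DMSO values, and the decrease was present in every culture. The change of −0.82 (SE 0.15, 95% interval −1.18 to −0.46), or 1.77-fold lower, had an adjusted p of 0.282 in limma without the block and 0.0350 with it. Its near-identical copy SNORA3A, from the same gene, had 5.10, 4.99 and 4.80 with X5050, against 5.32, 5.39 and 5.36 with DMSO. The change of SNORA3A was −0.39 (SE 0.099, limma adjusted p = 0.342, and 0.127 with the block), with no overlap between the groups.

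SCARNA9L, a SCARNA9-like copy that lies within the translation initiation factor gene EIF1AX, had log2 signals of 6.82, 7.03 and 6.99 in the X5050 cultures, against 7.62, 7.60 and 7.71 in the DMSO cultures. The groups did not overlap and the 3 DMSO values lay close together. The change was −0.70 (SE 0.091, 95% interval −0.91 to −0.49), or 1.63-fold lower, with a limma adjusted p of 0.172 without the block, the smallest of any member, and 0.0328 with it. A second, dimmer probe set of SCARNA9L had 3.82, 4.13 and 3.97 with X5050, against 3.61, 4.31 and 4.08 with DMSO. Its change of −0.026 did not share the decrease of the brighter one (limma adjusted p = 0.981, and 0.948 with the block). The calls of SNORA3B and SCARNA9L were lost without culture 3, as were those of all other tested probe sets. The differences in culture 3 were −0.61 for SNORA3B and −0.72 for SCARNA9L, not the largest of either RNA. Without that culture the blocked limma adjusted p was 0.116 for SNORA3B and 0.195 for SCARNA9L, while without culture 1 or culture 2 both stayed under 0.05.

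SNORA7B had log2 signals of 5.32, 5.17 and 5.55 in the X5050 cultures, against 5.72, 6.13 and 5.98 in the DMSO cultures. The groups did not overlap, and the difference was widest in culture 2. The change was −0.60 (SE 0.14), or 1.51-fold lower, and did not pass (limma adjusted p = 0.341, and 0.0843 with the block). Without culture 1, where the difference was smallest (−0.40), the blocked change was −0.70, with a limma adjusted p of 0.0278. SNORA7B did not pass without culture 2 or culture 3. SNORA27, encoded in RPL21, had 4.34, 4.30 and 4.54 with X5050, against 4.57, 4.76 and 4.71 with DMSO, a change of −0.29 (SE 0.10) with no overlap. SNORA65, a guide of 28S ribosomal RNA encoded in RPL12, had 4.95, 5.15 and 4.95 with X5050, against 5.30, 5.14 and 5.46 with DMSO, a change of −0.28 (SE 0.11). Its values were lower in cultures 1 and 3 but equal to within 0.011 in culture 2. SNORA41, SNORA67 and SNORA10, which lie within EEF1B2, EIF4A1 and RPS2, differed by −0.24, −0.33 and −0.40 (SE 0.11, 0.16 and 0.20), with adjusted p-values above the threshold in both fits. Without culture 2, in which SNORA10 was higher with X5050 (0.14), its blocked change was −0.68 (limma adjusted p = 0.0464). SNORA10 did not pass without culture 1 or culture 3.

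On the higher side, SCARNA14, encoded in the replication fork gene TIPIN, had log2 signals of 4.63, 4.40 and 5.05 in the X5050 cultures, against 3.84, 4.07 and 4.13 in the DMSO cultures. It was higher in every culture without overlap, and its mean over all arrays lay below the lower quartile of signal. The change was 0.68 (SE 0.17, 95% interval 0.29 to 1.07), or 1.60-fold higher, and did not pass (limma adjusted p = 0.341, and 0.0627 with the block). Without culture 2, where the difference was smallest (0.33), the blocked change was 0.85, with a limma adjusted p of 0.0236. The blocked limma adjusted p was 0.0515 without culture 1 and 0.332 without culture 3.

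SNORA24, a guide of 18S ribosomal RNA, had log2 signals of 5.26, 5.20 and 5.05 in the X5050 cultures, against 4.78, 4.93 and 4.79 in the DMSO cultures. The groups did not overlap, and the change was 0.34 (SE 0.093, limma adjusted p = 0.365, and 0.147 with the block), or 1.26-fold higher. SNORA46 had 3.85, 4.04 and 4.02 with X5050, against 3.59, 3.84 and 3.71 with DMSO, a change of 0.25 (SE 0.10). Changes of SNORA29, SNORA75, SNORA23 and SNORA71A lay between 0.17 and 0.30 and did not pass in either fit.

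The largest positive change, that of SNORA70G, rested on 1 array. Its log2 signals were 5.24, 6.75 and 5.56 in the X5050 cultures, against 5.33, 4.89 and 5.14 in the DMSO cultures. The 6.75 of X5050 culture 2 stood well above the other 5 values, and in culture 1 the X5050 value was the lower one. The change was 0.73 (SE 0.35, limma adjusted p = 0.583), and it was 0.28 without X5050 replicate 2. Under the block it was 1.14 without culture 1 (limma adjusted p = 0.0317) and 0.16 without culture 2. SNORA70E had its one large difference in the same culture, with 4.62, 5.43 and 5.05 with X5050, against 4.76, 4.26 and 5.01 with DMSO.

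Among the other SCARNA probe sets, SCARNA17, a C/D type guide, had log2 signals of 5.96, 6.25 and 6.05 in the X5050 cultures, against 6.19, 6.50 and 6.29 in the DMSO cultures. The groups overlapped because the cultures differed in level, while the differences of −0.23, −0.25 and −0.24 in cultures 1, 2 and 3 were nearly equal. The change of −0.24 (SE 0.12) did not pass (limma adjusted p = 0.593, and 0.245 with the block), and a dimmer probe set of SCARNA17 gave −0.20. SCARNA22, an H/ACA RNA from an intron of NSD2, had 5.83, 6.04 and 5.74 with X5050, against 5.60, 5.47 and 5.95 with DMSO, so it was higher in cultures 1 and 2 and lower in culture 3.

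**Figure D1:**
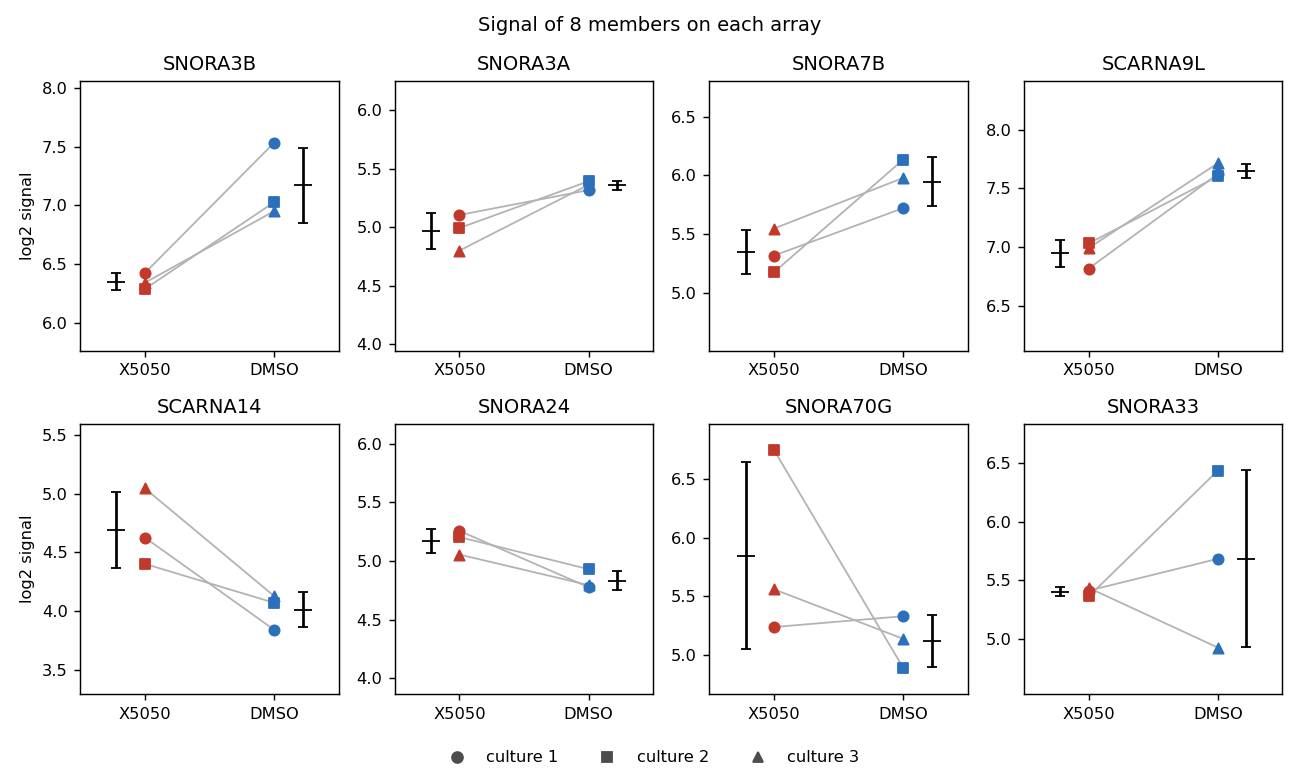
Log2 signal of 8 members on each array, with X5050 to the left of DMSO in each panel, markers and grey lines joining the samples of each culture, and black bars showing the mean ± SD of 3 arrays. All panels span the same height. SNORA3B, SNORA3A, SNORA7B and SCARNA9L are lower and SCARNA14 and SNORA24 higher with X5050 in every culture, whereas the mean of SNORA70G is raised by culture 2 at 6.75 and SNORA33 varies mainly among the DMSO arrays.

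The median change was −0.039 over the 61 SNORA probe sets, of which 36 were below 0, and 0.041 over the 16 SCARNA probe sets, of which 5 were below 0. Over all tested probe sets the median was 0.0092, with 52.7% above 0 and 47.3% below. The SNORA median minus the SCARNA median was −0.080 over all arrays, and −0.016, −0.068 and −0.040 in cultures 1, 2 and 3. The median size of a single member's change, regardless of direction, was 0.11 for SNORA, 0.076 for SCARNA and 0.093 for all tested probe sets. The direction of a class median was not the same in each culture, at −0.020, 0.0045 and −0.055 for SNORA and at −0.0038, 0.073 and −0.014 for SCARNA.

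**Figure D2:**
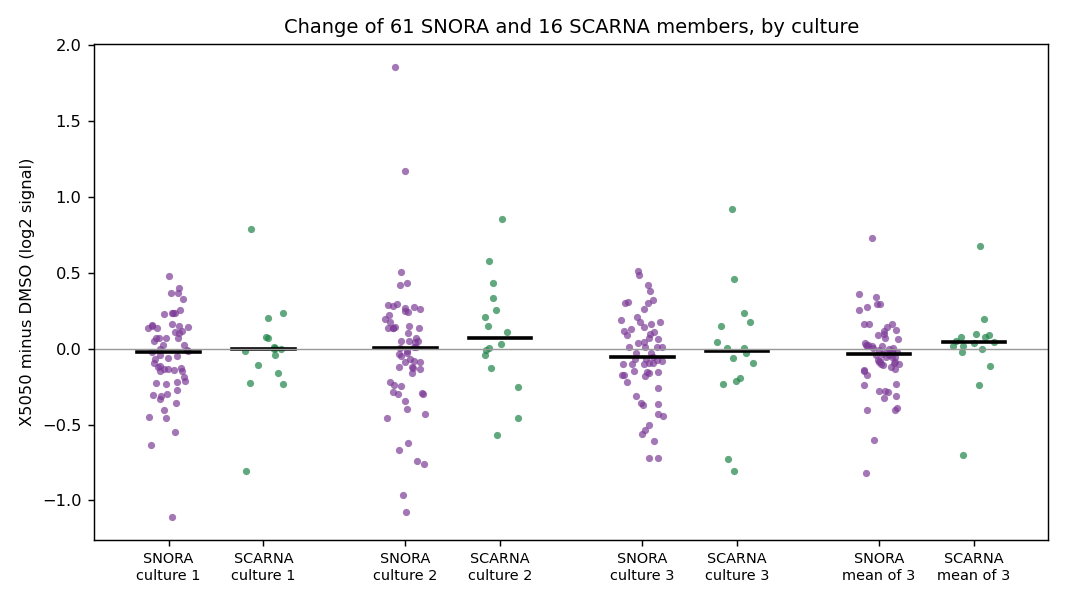
X5050 minus DMSO in log2 signal for each of 61 SNORA and 16 SCARNA members (points) in cultures 1, 2 and 3 and as the mean of the 3, with black lines at the class medians. The medians stay between −0.055 and 0.073 while single members reach beyond 0.5 in either direction, most often in culture 2.

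The cultures differed in how widely the members were scattered. In culture 1, 5 of the 77 (6.49%) had an X5050 minus DMSO difference larger than 0.5, against 4.23% of all tested probe sets. In culture 2 it was 12 (15.6%), against 5.61%, and in culture 3 it was 10 (13.0%), against 4.35%. The median size of the difference was 0.15, 0.22 and 0.17 for the members in cultures 1, 2 and 3, and 0.13, 0.15 and 0.13 for all tested probe sets.

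Spread was larger among the DMSO arrays than among the X5050 arrays for the SNORA class. The median SD over 3 arrays was 0.12 with X5050 and 0.19 with DMSO for SNORA, 0.11 with X5050 and 0.12 with DMSO for SCARNA, and 0.11 with X5050 and 0.13 with DMSO for all tested probe sets. Below the lower quartile of signal the median DMSO SD was 0.19 for SNORA and 0.12 for all tested probe sets. Between the lower quartile and the median it was 0.15 for SNORA, 0.16 for SCARNA and 0.13 for all, and between the median and the upper quartile it was 0.22 for SNORA and 0.15 for all. In the same order of bands, the median X5050 SD of SNORA was 0.12, 0.12 and 0.082. These are descriptions over probe sets, and the difference in spread was not tested.

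SNORA33 had the largest DMSO spread. Its log2 signals were 5.41, 5.36 and 5.44 in the X5050 cultures (SD 0.038), against 5.68, 6.44 and 4.93 in the DMSO cultures (SD 0.75). The differences of −0.27, −1.07 and 0.51 in cultures 1, 2 and 3 therefore ran in both directions. SCARNA8, an H/ACA guide of the U2 small nuclear RNA, had 5.04, 5.52 and 5.47 with X5050, against 5.06, 5.97 and 5.01 with DMSO.

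SCARNA7, a C/D type guide of the U1 small nuclear RNA, had 4.84, 5.46 and 4.75 with X5050, against 4.84, 4.61 and 5.56 with DMSO, giving opposite differences of 0.85 and −0.81 in cultures 2 and 3. SNORA62 had 4.31, 4.47 and 4.84 with X5050, against 4.21, 5.10 and 5.02 with DMSO. SNORA5A had 4.57, 4.68 and 4.24 with X5050, against 4.57, 5.34 and 4.78 with DMSO. It was nearly equal in culture 1 and lower with X5050 in cultures 2 and 3. Its blocked change without culture 1 was −0.60 (limma adjusted p = 0.0268), and it did not pass without culture 2 or culture 3.

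Many SCARNA probe sets were low on both arrays of culture 1. On X5050 array 1, 14 of 16 lay below their X5050 mean, and on DMSO array 1, 13 of 16 lay below their DMSO mean. Culture 2 was not alike on its 2 arrays, with 13 of 16 above the mean on X5050 array 2 and 7 of 16 on DMSO array 2. In culture 3, 8 of 16 lay above on the X5050 array and 10 of 16 on the DMSO array. For SNORA, 39 of 61 lay below the mean on X5050 array 1 and 38 of 61 on DMSO array 1. Over all tested probe sets the division was nearly even, with 9801 below on X5050 array 1 and 9932 below on DMSO array 1.

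Among SCARNA members the longer RNAs tended to have the lower changes. RefSeq lengths ran from 125 to 421 nt for SCARNA (median 226.5) and from 123 to 236 nt for SNORA (median 134). Across the 16 SCARNA members the change and the length had a Pearson r of −0.60 and a Spearman rho of −0.70, and without SCARNA9L and SCARNA14 they had an r of −0.74 and a rho of −0.68 over 14. Across the 61 SNORA members r was 0.13 and rho 0.15. These correlations describe members measured on the same 6 arrays and carry no p. They were not computed for each culture. In culture 2, SCARNA7 (330 nt) at 0.85 and SCARNA8 (131 nt) at −0.46 ran against the trend. SCARNA9L (348 nt) at −0.57 and SCARNA14 (137 nt) at 0.33 ran with it. The longest RNAs include SCARNA17, SCARNA9 and SCARNA7, of the C/D type, and SCARNA10, with both kinds of box. Length and architecture therefore cannot be told apart here. The comparison with length was not among the planned ones. It used the brightest probe set of each RNA, and dimmer ones of SCARNA9L, SCARNA9 and SCARNA17 had changes of −0.026, 0.021 and −0.20. The column kit used for extraction favours longer RNAs, and its part in the values was not tested.

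**Figure D3:**
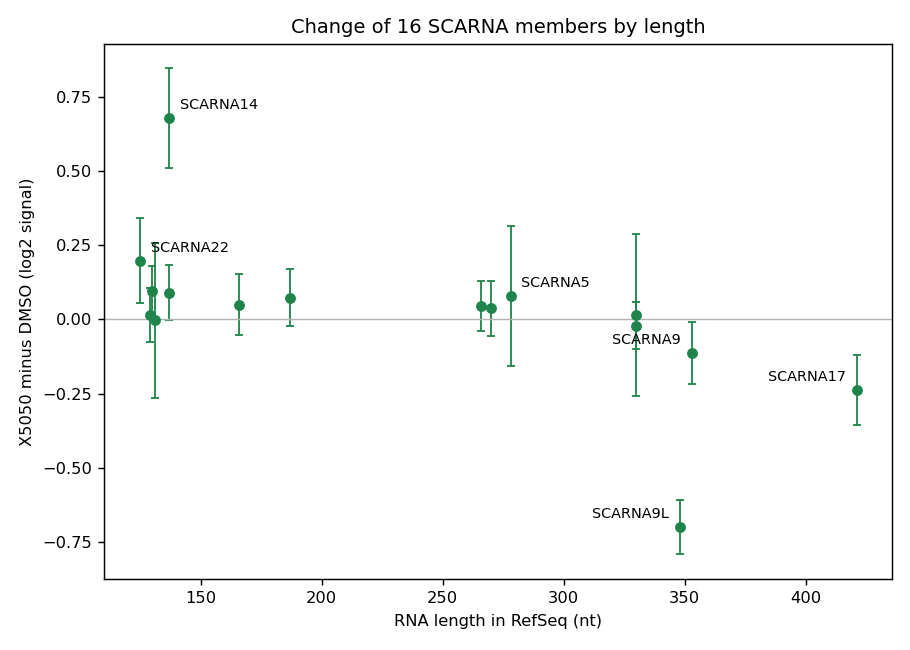
X5050 minus DMSO in log2 signal (points, with the SE of the limma fit as bars) against RefSeq length in nt for the 16 SCARNA members. The longest, SCARNA17 at 421 nt, has a change of −0.24 and SCARNA9L at 348 nt has −0.70, while SCARNA14 at 137 nt has 0.68.

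All 77 RNAs lay inside a longer gene in RefSeq, and 56 of them had a containing gene with a signal of its own, in 47 genes. The change of the RNA and that of its containing gene were nearly unrelated, with a Pearson r of 0.079 and a Spearman rho of 0.076 over the 56, and 32 of 56 had the same sign. By class, r was 0.14 for 44 SNORA and −0.11 for 12 SCARNA members. Of the 47 containing genes 34 had changes below 0, where 47.3% of all tested probe sets did. The median of the 47 was −0.095, and none passed in either fit.

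RPL27A, which contains SNORA3A and SNORA3B, had log2 signals of 10.61, 10.59 and 10.76 in the X5050 cultures, against 10.65, 10.81 and 11.24 in the DMSO cultures. Its change of −0.25 (SE 0.15, limma adjusted p = 0.696, and 0.329 with the block) was largest in culture 3, whereas the decrease of SNORA3B was largest in culture 1. EIF1AX differed by −0.062 and RPL32P3, which contains SNORA7B, by 0.020. TIPIN differed by −0.17 and SCARNA14 inside it by 0.68.

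Some containing genes had larger changes than their RNA. RPLP2, a ribosomal stalk protein gene, had 10.96, 11.14 and 11.04 in the X5050 cultures, against 11.30, 11.43 and 11.76 in the DMSO cultures, a change of −0.45 without overlap (limma adjusted p = 0.368, and 0.115 with the block). SNORA52 within it differed by 0.16. USP34 differed by 0.32 and SNORA70B within it by −0.0084. RPL23 differed by −0.34 and SNORA21 within it by 0.099. The RPL23 probe set was at 5.91 with X5050 and 6.24 with DMSO, below the median of all tested probe sets (6.26). RPLP2, USP34 and RPL23 were chosen after their values were seen.

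**Figure D4:**
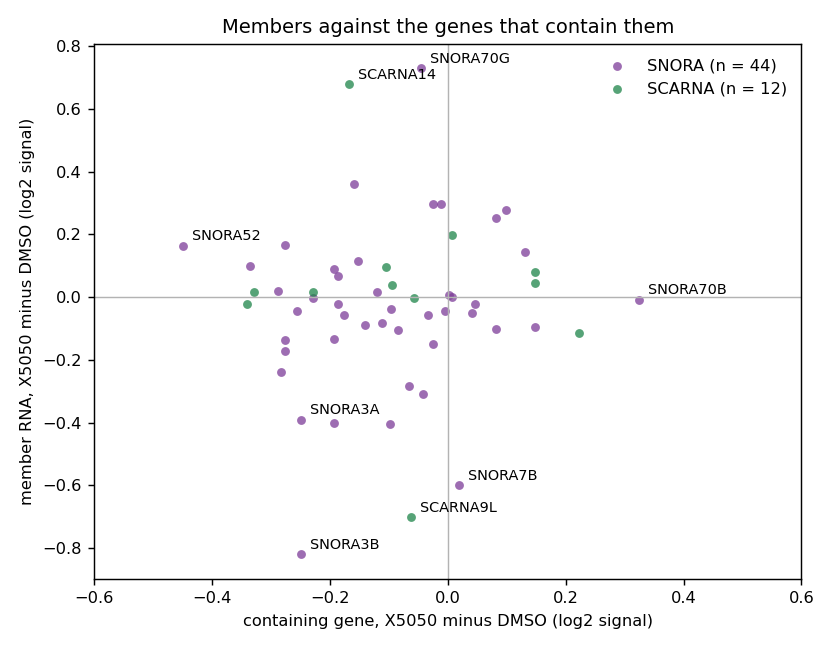
X5050 minus DMSO in log2 signal for 56 member RNAs (vertical axis) against that of the gene containing each (horizontal axis), with 44 SNORA and 12 SCARNA points in 2 colours and 8 RNAs named. The points form no line (r = 0.079), and SNORA3B, SCARNA9L, SCARNA14 and SNORA70G lie far from 0 vertically while their containing genes stay between −0.25 and −0.045.

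RNAs of the same gene had unlike changes in several cases. SNORA3A and SNORA3B of RPL27A were both lower, at −0.39 and −0.82. In TBRG4, SNORA5A, SNORA5B and SNORA5C differed by −0.40, −0.13 and 0.090. In the chaperonin gene TCP1, SNORA20 and SNORA29 differed by −0.15 and 0.30, and in the ribosomal protein gene RPSA, SNORA6 and SNORA62 differed by 0.16 and −0.23. In ATG16L1, SCARNA5 and SCARNA6 differed by 0.079 and 0.045. None of these passed in either fit other than SNORA3B. Within families of related sequence, the 6 RNAs named SNORA70 ran from −0.058 to 0.73, with 3 above 0 and 3 below, and those named SNORA80 ran from −0.090 to 0.0012.

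Many genes that host such RNAs begin transcription within a run of C and T letters, the start sequence known from ribosomal protein and translation factor genes. In the RefSeq promoter sequences (GRCh38.p14), a run of at least 6 unbroken C or T letters that covers the first transcribed base, read on the gene's own strand, was found in 20 of 55 containing genes with a sequence (36.4%), against 9.25% of 27305 genes. The equivalent of such a run on the opposite strand, a run of A and G letters, was found in 2 of the 55, against 10.7% of all genes. The starts of 6 containing genes of the RNAs described above are given here because they show both kinds. Those shown with a run all hold RNAs with changes below 0, which is not so of every gene with a run. Of the RNAs in all such genes, 14 had changes below 0 and 8 above. The latter include SNORA24 in SNHG8 (0.34), SNORA23 in IPO7 (0.28) and SNORA52 in RPLP2 (0.16). Each sequence runs 5′ to 3′ on the gene's strand, with 40 bases before the start and 20 from it, and capitals mark the C and T run.
RPL27A, with SNORA3A and SNORA3B, chr11:8682752-8682811, plus strand: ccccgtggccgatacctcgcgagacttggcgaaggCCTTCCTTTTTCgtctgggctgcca
RPL21, with SNORA27, chr13:27251518-27251577, plus strand: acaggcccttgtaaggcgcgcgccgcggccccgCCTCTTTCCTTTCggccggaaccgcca
RPL12, with SNORA65, chr9:127451387-127451446, minus strand: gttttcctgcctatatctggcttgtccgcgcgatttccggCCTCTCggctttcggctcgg
EEF1B2, with SNORA41, chr2:206159855-206159914, plus strand: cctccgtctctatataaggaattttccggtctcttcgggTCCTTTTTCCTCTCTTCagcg
TIPIN, with SCARNA14, chr15:66356666-66356725, minus strand: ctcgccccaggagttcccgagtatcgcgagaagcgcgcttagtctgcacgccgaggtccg
EIF1AX, with SCARNA9L, chrX:20141819-20141878, minus strand: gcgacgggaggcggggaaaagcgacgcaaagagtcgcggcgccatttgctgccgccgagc

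The runs span 12 letters in RPL27A, 13 in RPL21, 6 in RPL12 and 17 in EEF1B2, and no such run covers the start in TIPIN or EIF1AX. The 22 RNAs inside genes with a run had a median change of −0.040, with 14 below 0 and 8 above. The 42 RNAs inside genes with a sequence but no run had a median of 0.0034, with 20 below 0 and 22 above. By culture the medians were −0.0094, −0.014 and −0.064 with a run, and −0.028, 0.045 and −0.011 without, so the order was not the same in culture 1. A run is a description of letters in this window, and the search was chosen after the changes were seen.

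Genes of the proteins that bind and assemble H/ACA RNAs were lower than DMSO more often than higher, though none of the 10 passed in either fit. Of the 10, 8 had changes below 0, with a median of −0.23, and 5 had an unadjusted p under 0.05, all lower, where 4.88% of all tested probe sets were lower at that p. The median was −0.15, −0.39 and −0.12 in cultures 1, 2 and 3, against a median of 0.0092 and 47.3% below 0 over all tested probe sets. NHP2, a core protein of every H/ACA particle, had log2 signals of 7.40, 6.98 and 7.33 in the X5050 cultures, against 7.70, 7.80 and 7.97 in the DMSO cultures. The groups did not overlap, and the change was −0.58 (SE 0.13, limma adjusted p = 0.341, and 0.0749 with the block).

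GAR1, the protein added last to the particle, had 7.89, 7.68 and 7.68 with X5050, against 8.16, 8.12 and 8.13 with DMSO. Its change was −0.38 (SE 0.089, limma adjusted p = 0.341, and 0.110 with the block), again with no overlap. DKC1, the enzyme, differed by −0.20 (SE 0.11), and NOP10, the smallest core protein, by 0.054 (SE 0.082). RUVBL1 and RUVBL2, the ATPases of the assembly machinery, differed by −0.41 and −0.26 (SE 0.15 and 0.091). NOLC1, which links these particles to the nucleolus and Cajal bodies, differed by −0.32 (SE 0.12), and TCOF1 by −0.12. The assembly factors NAF1 and SHQ1 differed by −0.079 and 0.083, and SHQ1 ran from −0.48 to 0.75 between cultures.

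**Figure D5:**
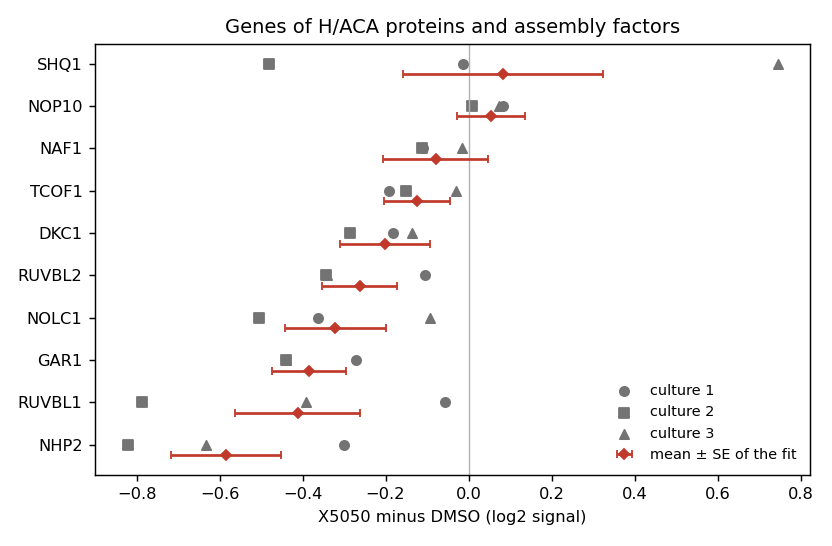
X5050 minus DMSO in log2 signal for 10 genes of H/ACA proteins and assembly factors, with grey markers for cultures 1, 2 and 3 and red diamonds for the mean ± SE of the limma fit. NHP2 at −0.58 is lowest, GAR1 and RUVBL1 lie near −0.4, and NOP10 and SHQ1 lie above 0.

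In the other lists of the pathway no gene passed in either fit. Of 21 measured genes of the Cajal body and the SMN complex 13 were below 0 (median −0.044), where 47.3% of all tested probe sets were. The smallest p-values belonged to GEMIN7, an SMN complex protein, at −0.26 (SE 0.094), to NPAT, a histone gene activator, at 0.21 (SE 0.083), and to PHAX, an export adaptor of small nuclear RNAs, at −0.28 (SE 0.11). COIL, the scaffold of Cajal bodies, differed by 0.072, and WRAP53, which brings SCARNA particles there, by 0.0037. TERC, the H/ACA RNA of telomerase, differed by −0.024.

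The 8 measured C/D box protein genes had a median of −0.0013, with NOP58 at −0.23, RRP9 at −0.15 and FBL, the methyltransferase, at −0.068. In the list of RNA processing and decay, 20 genes had a median of −0.029. The exonuclease XRN1 stood at 0.41 (SE 0.099), the poly(A) polymerase TENT4B at 0.26 (SE 0.079) and the exosome subunit EXOSC3 at −0.28 (SE 0.11). Of 7 nonsense-mediated decay genes (median −0.021), SMG9 was at −0.29, SMG1 at 0.36 and UPF2 at −0.13.

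The counts below 0 that follow stand against 47.3% of all tested probe sets. Only 4 of the 20 genes of the list of small nucleolar RNA host genes were measured. All 4 were below 0 (median −0.27), including SNHG17 at −0.28, TAF1D at −0.26 and ZFAS1 at −0.19. Of 18 genes of RNA polymerase I and ribosomal RNA synthesis 15 were below 0 (median −0.066), with PES1, a factor of the large subunit, at −0.37 (SE 0.10), UBTF at −0.24 and POLR1E at −0.19. Of 17 genes of the spliceosomal small nuclear RNAs and their transcription 13 were below 0 (median −0.055). RNU4-2, a U4 gene, was at −0.55 (SE 0.17). Its probe set was dim, at 3.09 with X5050 and 3.64 with DMSO, and the groups overlapped. Its differences were −0.29, −0.99 and −0.38 in cultures 1, 2 and 3. The brighter probe set of RNU4-1, another U4 gene, was at −0.13 (SE 0.14). RNU4ATAC, the counterpart of U4 in the minor spliceosome, was at −0.35 (SE 0.10). SNAPC3, a subunit of the complex that starts transcription of such genes, was at −0.23 (SE 0.091).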

How the data were processed

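The authors deposited 1 log2 signal for each probe set and array, made with RMA and Partek per the submitters' processing notes. For versions, settings and genome build, no information is given in the sources used here. RMA subtracts background, brings arrays to a common distribution and compresses changes of dim probe sets. Depth has no meaning for arrays, and 3 samples per group limit the precision. The platform annotation gives 19460 of 33297 probe sets 1 symbol, and 1754 with several symbols and 12083 without an entry were not tested.

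The X5050 and DMSO arrays were compared with lmFit and eBayes of limma 3.58.1 (statmod 1.5.0, R 4.3.3), two-sided, over all 19460 probe sets, with Benjamini-Hochberg adjustment and a threshold of 0.05. The model, tested on simulated data, has 4 residual degrees of freedom, or 2 with culture as a block. An exact permutation test of 3 against 3 cannot go below 0.1. Same-numbered samples deviated together from their group means (r = 0.365, 0.297 and 0.255, against −0.236 to −0.052 for different numbers). Deviations from a group mean cancel within the group, so the values for different numbers are not an independent contrast. All 3 pairs passed the limit set for pairing, so the numbers were taken as pairs. The design text describes 3 cultures and does not say outright that each was split between the agents. Blocked values stand beside results they change. Summaries and figures used Python 3.11.15 and matplotlib 3.10.9.

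All 77 members matched RefSeq (GRCh38.p14) by Entrez identifier. The containing gene was the shortest one spanning the RNA, on either strand, since the table has no strand, and the strand planned as a condition could not be used. Named members were those called in a fit, the 8 SNORA and 5 SCARNA with the smallest p in each direction, extremes of DMSO signal and DMSO spread, and the 5 largest changes of one sign in all cultures. Named list genes were all H/ACA proteins and the 3 smallest p of each other pathway list. Of the marker lists, only the neural stem cell markers with the 3 smallest p and LUM were named. COIL, WRAP53 and TERC were named outside that rule, with values seen. Members and lists were chosen with earlier results of these data known. Alternatives were the block, each array or culture left out, median centring, a second quantile normalization, a filter on dim probe sets, an intensity trend with robust moderation, the mean of a symbol's probe sets and identical probe sets counted once.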

Additional observations from a re-analysis of the deposited data

How the results depend on the processing

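With the replicate block, 97 probe sets passed in limma instead of 0, 2 members instead of 0, and 18 members instead of 9 had an unadjusted p under 0.05. Leaving out 1 array gave 0 to 1 probe sets, 0 to 0 members and 7 to 13 members at that unadjusted p, and leaving out 1 culture under the block gave 0 to 346, 0 to 5 and 13 to 16. Under the block, 346 probe sets and 5 members passed without culture 1, 81 and 4 without culture 2, and 0 and 0 without culture 3. Leaving out an array put the SNORA median change between −0.056 and −0.0033, the SCARNA median between −0.0012 and 0.097 and their difference between −0.12 and −0.052. Leaving out a culture put them between −0.034 and −0.018, 0.0078 and 0.064, and −0.097 and −0.026, with a difference of −0.048 without culture 3. Without dim probe sets, under the lower quartile of mean signal, 5 members had an unadjusted p under 0.05 and the SNORA median was −0.090, over fewer members. With 1 array or culture left out, 28 of 36 named members kept their sign in all 9 such fits. Changes reversed for SCARNA10 (−0.050 to 0.015, and −0.042 without DMSO replicate 2), SCARNA16 (−0.0058 without culture 3, up to 0.19), SCARNA8 (−0.24 to 0.31, with −0.17 without DMSO replicate 3, 0.15 without X5050 replicate 1, and 0.0019 and 0.22 without cultures 1 and 2) and SNORA70E (−0.046 to 0.61). They also reversed for SCARNA7 (−0.40 without culture 2, and from −0.21 without X5050 replicate 2 to 0.29 without DMSO replicate 3), SNORA33 (−0.66 without DMSO replicate 3, but 0.098 without DMSO replicate 2 and 0.12 without culture 2), SNORA69 (−0.043 and −0.0018 without cultures 1 and 2, and from −0.027 to 0.089 with an X5050 array left out) and SNORA80E (0.032 and 0.11 without cultures 1 and 3, and from −0.083 to 0.11 with an array left out). Among the other settings, median centring gave −0.0044 for SCARNA7 and quantile normalization 0.013 for SNORA80E, both near 0 and reversed. The causes were not tested. The mean of a symbol's probe sets was not run for counts of calls. No probe set carries a detection measure here, so the dim members are limited by signal over background to an extent that is not known.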

Other observations

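The 28 probe sets that name a SNORA or SCARNA together with another gene, which the choice of members leaves out, were lower with X5050 more often than higher. Of these, 22 had changes below 0 and 6 above, where 47.3% of all tested probe sets were below 0. The median of the 28 was −0.12, against −0.0084 for the 77 members. The median log2 signal was 5.05 with X5050 and 5.10 with DMSO. The lowest change, −0.62, belonged to a probe set shared by SNHG3 and SNORA73A, which had 4.15, 3.10 and 3.48 in the X5050 cultures, against 3.87, 4.79 and 3.93 in the DMSO cultures. Its difference of −1.70 in culture 2 stood against 0.28 in culture 1. The highest change, 0.19, belonged to a probe set shared by SCARNA13 and SNHG10. Such probe sets cannot assign their signal to the guide RNA or to its host, and several cover the same host, so they are not separate measurements.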
